A study of Mus musculus with 15 samples.

Results

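The cytosolic ribosomal protein genes were examined in lineage-negative bone marrow cells of mice that had received serially transplanted stem and progenitor cells of 4 genotypes. The genes were chosen by name: protein-coding genes of the GENCODE vM21 mouse annotation whose symbol is Rpl or Rps followed by a digit, together with Rpsa, Rplp0, Rplp1 and Rplp2, without Rps27l, the Rps6k kinases and symbols containing -ps. This gave 85 of the 45706 genes in the count table, 52 with a large subunit (Rpl) and 33 with a small subunit (Rps) symbol. One of them, Rpl10l, a testis paralogue of Rpl10, had 0 counts in every library, which allows at most 3 counts per library, and the other 84 passed the filter on low counts with 18983 genes in all. The name rule also takes in Rps19bp1, which encodes a protein that binds RPS19 and is no subunit of the ribosome.

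The cells came from femurs of secondary recipients, sorted magnetically for the absence of lineage markers. The donors were C57BL/6J mice of 4 genotypes: wild type (WT, 3 libraries), Puma-/- (4 libraries), which lack the gene of the apoptosis activator PUMA (Bbc3), third-generation telomerase-deficient mice with intact Puma (G3 mTerc-/-Puma+/+, 4 libraries), and third-generation mice labelled as lacking both (G3 mTerc-/-Puma-/-, 4 libraries). All alleles were deleted in the germline, so every donor cell carried them, and the telomerase-deficient lines had been inbred without telomerase so that telomeres shortened over the generations. Donor LSK cells (lineage-negative, Sca-1 and Kit positive) carried CD45.2 and passed through 2 rounds of lethally irradiated CD45.1 recipients, and the recipients of all groups had thus been irradiated and transplanted. The labels name a sort for the absence of lineage markers and no sort for CD45.2, so how many recipient cells remained is not known. Donors were young adults by the study's methods, secondary recipients were taken at signs of disease or at a set end point, and recipient age and sex are not given per library. Replicate 2 of the libraries with the label G3 mTerc-/-Puma-/- was left out of the main analysis, because the study's heatmaps of these data do not draw it. The study gives no reason for this and states in its methods that it excluded no data. The values of this library are given where they matter. That left 14 libraries.

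Each ribosomal subunit is a shell of many small proteins around ribosomal RNA, and with few exceptions each protein is present once per ribosome. Transcription of their genes is high and coordinated in dividing cells, and most of the mRNAs begin with a cytosine followed by a run of pyrimidines, the 5′ terminal oligopyrimidine (TOP) tract, through which the mTOR pathway and the RNA-binding protein LARP1 set their translation and stability. In bone marrow these genes are known for Diamond-Blackfan anaemia, an inherited failure of red cell production caused by loss of 1 copy of a ribosomal protein gene, for the loss of RPS14 in the 5q- syndrome, and for the free RPL5 and RPL11 proteins that bind MDM2 and stabilise p53. Polyadenylated mRNA was sequenced here, so the values say nothing of translation, of the proteins or of ribosomal RNA.

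The sequence around the transcription start was read for the members with an entry in a RefSeq promoter table (GRCm38.p6). The members varied together between libraries, as described further on, and the part of these sequences in that was not tested. Of the 84 tested members, 64 had an entry, 75 entries in all. A run of at least 8 pyrimidines that came within 5 bases of the annotated start or spanned it was found for 23 of 64 members (35.9%). It was found for 1381 of 11294 other tested protein-coding genes (12.2%). The runs of the members had 9 to 21 bases, with a median of 11 bases. The windows below show 40 bases before the start and 20 bases from it, written 5′ to 3′ on the gene's own strand, with the run in capitals. Rplp2 is shown for the stalk, Rpl15, Rpl35a, Rps10, Rps24 and Rps27 for the Diamond-Blackfan anaemia genes, Rpl22l1 and Rps2 for the members that kept the largest scatter once the member median was subtracted, and Rps27rt and Rpl3l for members whose values separated genotypes. The windows of the stalk and anaemia genes were picked among those that hold a run, and other members of these lists, such as Rplp0, Rps19, Rpl5 and Rpl11, held none.
Rplp2: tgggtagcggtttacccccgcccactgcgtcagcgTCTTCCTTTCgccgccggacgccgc
Rpl15: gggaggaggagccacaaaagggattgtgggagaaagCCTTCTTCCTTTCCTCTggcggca
Rpl35a: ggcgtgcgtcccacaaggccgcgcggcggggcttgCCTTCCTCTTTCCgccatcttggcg
Rps10: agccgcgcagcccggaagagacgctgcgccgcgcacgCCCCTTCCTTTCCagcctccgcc
Rps24: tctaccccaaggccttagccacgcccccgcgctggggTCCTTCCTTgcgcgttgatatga
Rps27: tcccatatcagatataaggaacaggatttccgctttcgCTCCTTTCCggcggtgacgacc
Rpl22l1: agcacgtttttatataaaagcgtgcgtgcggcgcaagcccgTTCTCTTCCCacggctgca
Rps2: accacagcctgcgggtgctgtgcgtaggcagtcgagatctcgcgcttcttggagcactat
Rps27rt: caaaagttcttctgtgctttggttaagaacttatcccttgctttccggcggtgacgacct
Rpl3l: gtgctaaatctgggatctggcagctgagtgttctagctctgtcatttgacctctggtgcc
The windows lie at chr7:141447611-141447670 (plus strand) for Rplp2, chr14:18270967-18271026 (minus) for Rpl15, chr16:33056442-33056501 (plus) for Rpl35a, chr17:27635225-27635284 (minus) for Rps10, chr14:24490638-24490697 (plus) for Rps24, chr3:90213629-90213688 (minus) for Rps27, chr3:28805468-28805527 (plus) for Rpl22l1, chr17:24720023-24720082 (plus) for Rps2, chr9:114982720-114982779 (minus) for Rps27rt and chr17:24727786-24727845 (plus) for Rpl3l. The windows of Rps2, Rps27rt and Rpl3l held no such run at the annotated start, and Rpl35a, Rps24 and Rpl3l have further entries in the table. The start of Rps2 in this entry lies within the span of the gene in GENCODE vM21, chr17:24718116-24721929.

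Other letter patterns were counted on both strands of the whole 300-base promoter entries. CCGGAAGT, a core bound by ETS factors, was present for 17.2% of members and 8.15% of other genes, and AAGATGGC, the core of YY1 sites, for 9.38% and 4.77%. TATAAA was present for 10.9% and 9.33%, the palindromic core of NRF1 sites for 3.12% and 2.09%, and the E-box CACGTG, to which MYC binds, for 9.38% and 11.1%. CTTTCC, which can lie inside a pyrimidine run, was present for 53.1% and 30.3%. These are matches of letters, with no measurement of binding or of the start used in these cells.

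The libraries held 102790519 to 158367059 counts. Bbc3 was at 4.80 to 7.28 CPM (counts scaled to a common library total) in the Puma-/- libraries and at 9.65 to 22.1 CPM in WT, but at 13.6 to 17.2 CPM in the libraries with the label G3 mTerc-/-Puma-/-, so these do not show the lowered Bbc3 that their label implies and are called by their label throughout. Terc had 0 or 1 count in each telomerase-deficient library and 4 to 17 counts in each other library, in RNA selected for poly(A) tails. Kit and Cd34, which mark progenitors, were above 90 CPM in every library. The sexes of the cells differed between genotypes: Ddx3y, on the Y chromosome, was at most 0.0427 CPM in Puma-/- and at least 42.6 CPM in G3 mTerc-/-Puma+/+. It was at 21.0 to 40.6 CPM in WT and at 2.89 to 46.6 CPM in the libraries with the label G3 mTerc-/-Puma-/-. Xist, on the X chromosome, was at 444 to 926 CPM in Puma-/- and reached 412 CPM in WT and 665 CPM in the libraries with that label. Both RNAs thus occurred together in some libraries. Every comparison with Puma-/- also compared libraries that differed in Ddx3y, which cannot be told apart from the genotype. All 10 megakaryocyte markers of a fixed list had lower values in G3 mTerc-/-Puma+/+ than in Puma-/-, and 6 passed the test (all genes, 0.801%). Their summed levels were 457 to 724 CPM in Puma-/- and 188 to 371 CPM in WT. They were 211 to 301 CPM in G3 mTerc-/-Puma+/+ and 173 to 228 CPM in the libraries with the label G3 mTerc-/-Puma-/-. In Puma-/- against WT all 10 were higher at an unadjusted p by edgeR under 0.05 (all genes, 10.1%), with 0 called. Of the 10, 7 were called lower in the libraries with the label G3 mTerc-/-Puma-/- against Puma-/- (all genes, 0.306%). In G3 mTerc-/-Puma+/+ against Puma-/-, 2 of 15 proliferation genes, Ccnb1 and Bub1, passed as higher. In the libraries with the label G3 mTerc-/-Puma-/-, summed markers were at 311 to 494 CPM for 11 erythroid genes (271 to 327 in G3 mTerc-/-Puma+/+), at 1628 to 3781 CPM for 10 neutrophil genes (1365 to 2398) and at 65.3 to 138 CPM for 10 B cell genes (38.5 to 51.7, with 2 called, among them Igll1, beside 0.0738% of all genes). For the erythroid and neutrophil lists 0 genes were called and the ranges overlapped. The 10 T and NK cell genes did not follow, at 490 to 680 CPM (488 to 681), with 0 called. The part of these differences in the values of the ribosomal protein genes was not tested.

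The members were among the most abundant mRNAs of the cells. They took 8.96% ± 0.57 of all counts in the 3 WT libraries (mean ± SD) and 9.09% ± 0.829 in the 4 Puma-/- libraries. The share was 9.15% ± 0.166 in the 4 G3 mTerc-/-Puma+/+ libraries and 9.33% ± 0.937 in 3 of those with the label G3 mTerc-/-Puma-/-, or 9.26% ± 0.779 over all 4, so the genotype means differed by less than the spread within 3 of the 4 genotypes. The 268 annotated ribosomal protein pseudogenes took 0.0322% to 0.0463%. In these bulk samples, a lower share of a cell type and less RNA per cell cannot be told apart.

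Levels were compared between genes as CPM per kilobase of the main protein-coding transcript, so the order depends on the transcript picked. Those picked for Rps15a and Rps20 have 5130 and 3706 bases. Mean levels of 939 and 1123 CPM thus became 183 and 303 CPM per kilobase. The 80 members with at least 1000 counts in every library had a median of 1388 CPM per kilobase, with a 10th percentile of 618 and a 90th percentile of 2278. The highest level was that of Rps12, a small subunit protein, at 4123 ± 517 CPM per kilobase (SD over 14 libraries), followed by the stalk gene Rplp1 at 3493 ± 422. Rps29 at 3077 ± 296 and Rps24 at 3072 ± 348 came next, and the difference between these neighbours was smaller than their SDs. Among the 80, the lowest were the RPS19-binding protein gene Rps19bp1 at 30.4 and Rpl7l1, a paralogue of Rpl7, at 55.8 CPM per kilobase, and the ratio of the highest to the lowest was 135. Below these lay Rps27rt at 16.0, Rpl24 at 1.22, the testis paralogue Rpl39l at 0.297 and the muscle paralogue Rpl3l at 0.220 CPM per kilobase.

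**Figure D1:**
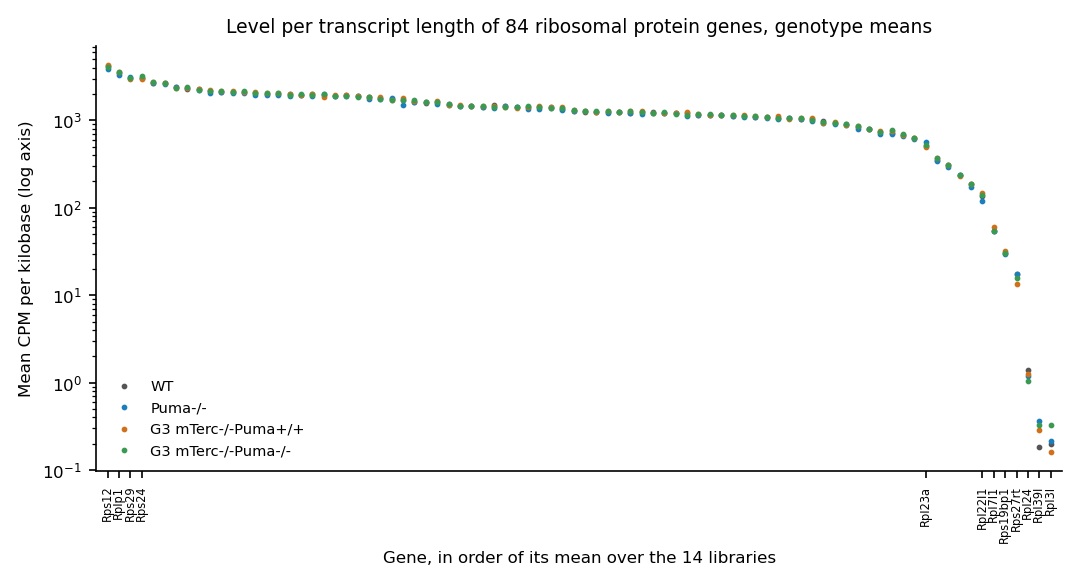
Mean CPM per kilobase of transcript (log axis) for the 84 tested genes, in order of the mean over 14 libraries, with 1 point per genotype and 12 genes labelled. The 4 genotype means of a gene lie nearly on each other from Rps12 at 4123 to Rps19bp1 at 30.4, and spread visibly at Rpl39l and Rpl3l, the lowest genes.

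Some of these levels are uncertain because members share sequence with copies elsewhere. Of the 85 members, 30 had more than 50% of their 100-base stretches in a transcript of another gene, letter for letter, 9 had none, and the median was 36.8%. In 10 members more than 10% of the exon bases lay inside another annotated gene. Rpl24, a core protein of the large subunit, had only 64 to 123 counts per library; 75.8% of its stretches occur in other genes and 71.5% of its exon bases lie inside Gm28037 on the same strand, which itself had 0 counts. Rps27 and its copy Rps27rt share 98.4% and 89.5% of their stretches with other genes, each with the other as the main partner. The study's methods set a limit in STAR on the number of matches per read and report how many reads mapped uniquely. They do not state in words whether reads with several matches entered the counts. The effect of such reads on the levels was not tested.

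Before the genotypes are compared, the libraries themselves need describing, because the members moved as 1 block between libraries of the same genotype. With the genotype means removed, the median correlation between pairs of the 80 high-count members over the 14 libraries was 0.914, and the first principal component held 89.4% of their variance. This is a description, since the points share libraries, depth and scaling. For 66 of 80 members the correlation with the median of all members was above 0.9, for example 0.994 for Rpl37, a large subunit protein. The lowest were Rpl29 at 0.787, Rpl7l1 at 0.798, Rpl23a at 0.813 and Rpl22l1, a paralogue of Rpl22, at 0.82.

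Replicate 3 of Puma-/- stood apart. Its member median lay 0.292 above the Puma-/- mean on the log2 CPM scale, with 80 of 80 members above their own genotype mean, while replicates 1, 2 and 4 lay at -0.150, -0.128 and -0.014. Replicate 2 of G3 mTerc-/-Puma+/+ was 0.137 above its genotype mean, with 80 of 80 members above it, against -0.086, -0.058 and 0.007 for replicates 1, 3 and 4. In the libraries with the label G3 mTerc-/-Puma-/-, replicate 4 was at 0.115, replicate 3 at 0.054 and replicate 1 at -0.169, with no member of replicate 1 above its mean. In WT, replicate 1 was at -0.153 and replicates 2 and 3 were at 0.080 and 0.073. The pooled within-genotype SD of the member median was 0.153, which is larger than any difference between genotype medians given further on, and each genotype held at least 1 library that lay below its mean for nearly every member.

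**Figure D2:**
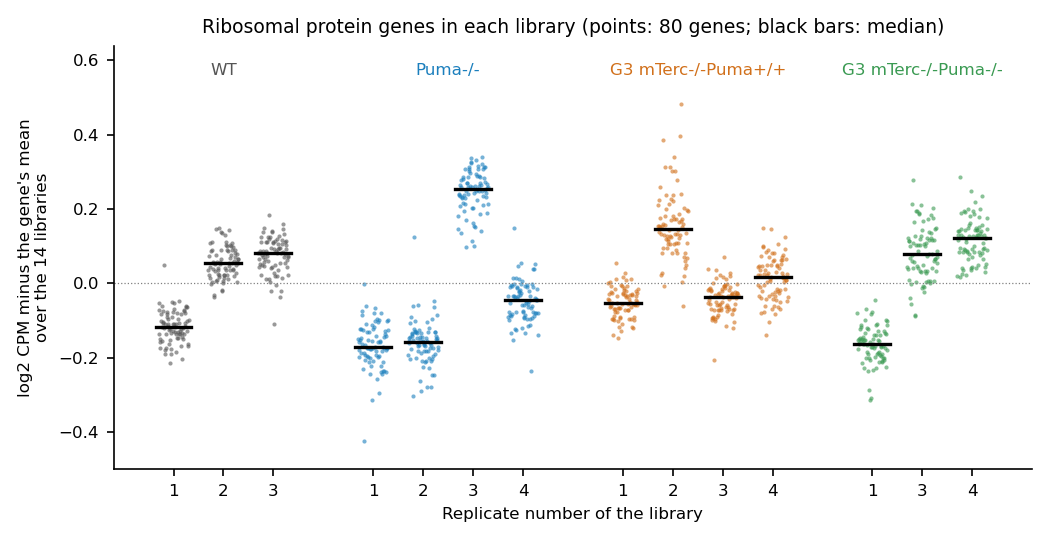
Log2 CPM of 80 ribosomal protein genes minus each gene's mean over the 14 libraries, 1 point per gene and a black bar for the median, by library and genotype. Puma-/- replicate 3 and G3 mTerc-/-Puma+/+ replicate 2 sit above the other libraries of their genotypes as a block, and replicate 1 of WT, of Puma-/- and of the libraries with the label G3 mTerc-/-Puma-/- sits below.

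Gene length moved with this block. For protein-coding genes that are not members, the median deviation of short genes (at most 2691 exonic bases, 3623 genes) minus that of long genes (at least 6670 bases, 3622 genes) was 0.278 in Puma-/- replicate 3, 0.136 in G3 mTerc-/-Puma+/+ replicate 2 and 0.134 in replicate 4 of the libraries with the label G3 mTerc-/-Puma-/-, and -0.206 in replicate 1 of the latter. Across the 14 libraries its correlation with the member median was 0.968, genotype means removed, a description over points that share depth and scaling. The members are short, with a median of 1805 exonic bases against 4318 for other protein-coding genes tested, and 61 of 80 fell in the class of short genes. The median of the mitochondrial ribosomal proteins followed the member median with a correlation of 0.866. The median of 15 genes of elongation and other TOP mRNAs deviated by 0.03 in Puma-/- replicate 3 (members 0.292). It deviated by -0.03 in WT replicate 1 (members -0.153) and by -0.00 in replicate 1 of the libraries with the label G3 mTerc-/-Puma-/- (members -0.169). In G3 mTerc-/-Puma+/+ replicate 2 it was at 0.22 (members 0.137). The part of RNA quality or library preparation in the block was not tested.

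**Figure D3:**
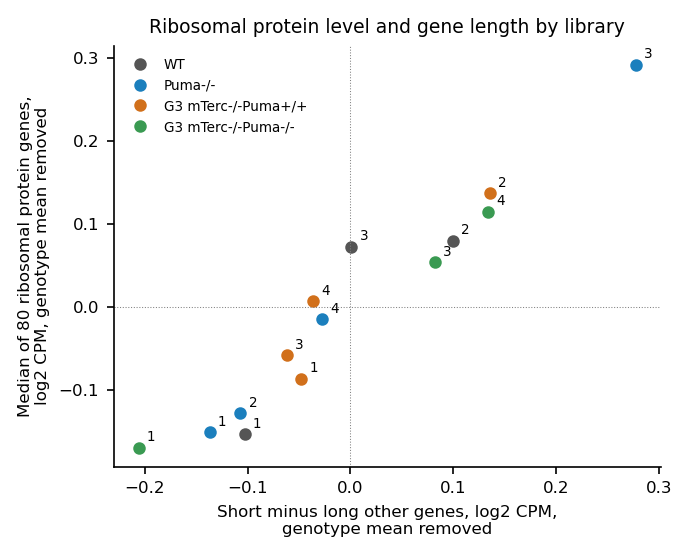
Median of 80 ribosomal protein genes (vertical axis) against the difference between short and long genes outside the set (horizontal axis), both as log2 CPM with the genotype mean removed, 1 point per library labelled with its replicate number. The points rise from replicate 1 of the libraries with the label G3 mTerc-/-Puma-/- at -0.206 and -0.169 to Puma-/- replicate 3 at 0.278 and 0.292.

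Relative to the member median, single members were steady. The median within-genotype SD of a member was 0.152 on the log2 CPM scale, against 0.237 for all genes tested, which were not matched to the members in level. It was 0.0561 once the member median of each library was subtracted, and no such value is given for other genes. Members that kept the largest scatter after this were led by Rpl22l1 at 0.126, followed by Rps2 at 0.102, a protein of the mRNA entry side of the small subunit, and by Rpl29 at 0.101.

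No ribosomal protein gene passed the test in any comparison of genotypes. With p-values adjusted (Benjamini-Hochberg) over all 18983 genes, edgeR's quasi-likelihood test called 0 of 84 members in each of 7 comparisons, 6 between pairs of genotypes and 1 for the interaction of the 2 deletions, and DESeq2 and limma-voom called 0 as well. Of all genes, it called 0.0790% for Puma-/- against WT, 0.0369% for G3 mTerc-/-Puma+/+ against WT and 0.0738% for the libraries with the label G3 mTerc-/-Puma-/- against G3 mTerc-/-Puma+/+. It called 0.306% for the latter libraries against Puma-/-, 0.0632% for them against WT, 0.801% for G3 mTerc-/-Puma+/+ against Puma-/- and 0.0527% for the interaction. At these shares, fewer than 1 of 84 genes would be called by background alone in each comparison, so 0 calls do not set the members apart. Without adjustment, 0, 0, 1, 1, 1, 1 and 1 members had a p under 0.05 by edgeR in these comparisons, 0, 0, 1, 1, 1, 3 and 1 by DESeq2, and 0, 0, 1, 1, 1, 2 and 1 by limma-voom. The shares over all genes by edgeR are given with each comparison below. Those by DESeq2 and limma-voom are not given here, so the counts by these methods have no background beside them. The standard error of a high-count member's log2 fold change had a median of 0.118 in most comparisons, so its 95% interval reached about 0.25 to either side, and 77 to 80 of 80 intervals lay within 0.5 of 0 in each comparison.

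**Figure D4:**
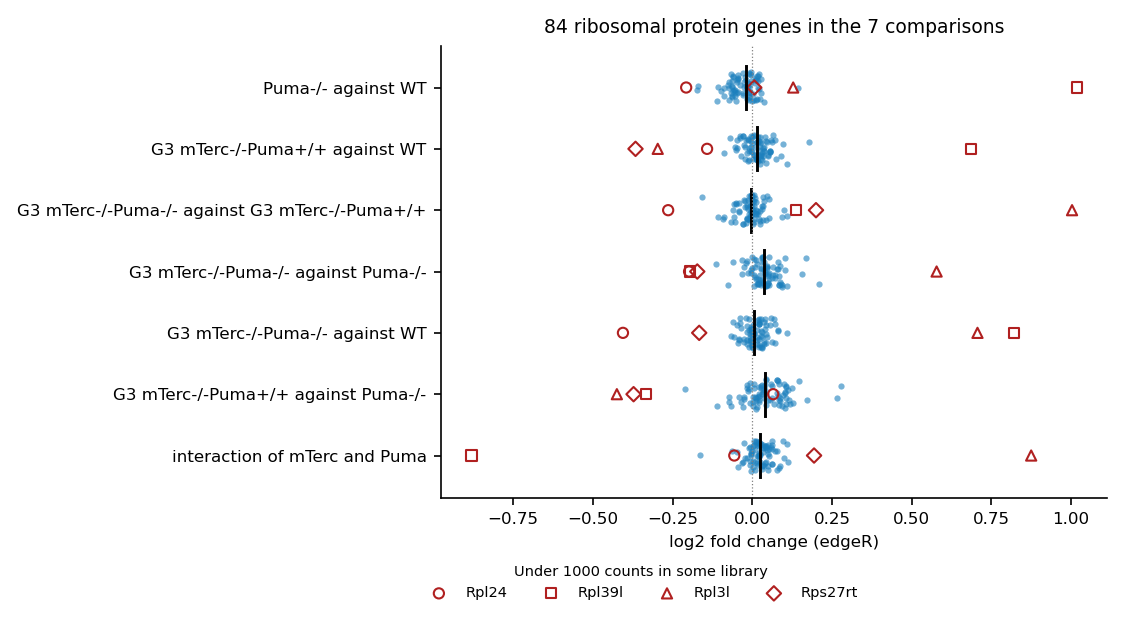
Log2 fold changes from edgeR for the 84 tested genes in the 7 comparisons, with the median as a black line and the 4 genes under 1000 counts in some library as open symbols. High-count members lie between -0.21 and 0.28 in every comparison, and the values beyond that belong to Rpl24, Rpl39l, Rpl3l and Rps27rt.

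Loss of Puma alone was compared with WT, and these groups also differed in Ddx3y, as given above. Of 84 members, 22 had a higher and 62 a lower fitted value, with a median log2 fold change of -0.0194 beside 0.0048 for all genes, and none reached an unadjusted p under 0.05 (all genes, 10.1%). The lowest were Rpl24 at -0.21 (SE 0.242), Rpl22l1 at -0.17 (SE 0.15), Rps2 at -0.17 (SE 0.145), and Rps15a and Rps26 of the small subunit at -0.11 each. Highest were Rpl39l at 1.02 (SE 0.652), Rpl23a at 0.14 (SE 0.0894), which lies at the exit of the peptide tunnel, Rpl3l at 0.13, Rpl37a at 0.04 and Rpl36 at 0.03. The smallest adjusted p of a member was 0.606. Without Puma-/- replicate 3 the median became -0.144 and 4 members had an unadjusted p by edgeR under 0.05, all lower, with 0 called. The share over all genes in that fit is not given here, so the 4 members have no background beside them.

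Rpl22l1 and Rps2 show how replicate 3 entered these values. Rpl22l1 was at 72.8, 68.9 and 73.3 CPM in WT, at 52.4, 57.0, 81.8 and 63.3 in Puma-/- replicates 1 to 4, at 65.8, 92.0, 70.4 and 78.0 in G3 mTerc-/-Puma+/+ and at 62.9, 85.3 and 72.2 in the libraries with the label G3 mTerc-/-Puma-/-. Rps2 was at 1564, 1744 and 1751 CPM in WT, at 1403, 1363, 1826 and 1406 in Puma-/-, at 1668, 2313, 1688 and 1599 in G3 mTerc-/-Puma+/+ and at 1502, 1657 and 1899 in the libraries with the label G3 mTerc-/-Puma-/-. In both genes, Puma-/- replicates 1, 2 and 4 were below every WT library and replicate 3 was above every one, so the groups overlapped.

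Telomerase deficiency with intact Puma was compared with WT. The median over members was 0.0151, beside 0.0180 for all genes, with 52 members above and 32 below 0 and none at an unadjusted p under 0.05 (all genes, 3.86%). The high-count members ran from Rps27 at -0.09 to Rpl7l1 at 0.18 (SE 0.102). Rpl7l1 was at 138, 147 and 134 CPM in WT and at 143, 183, 152 and 153 CPM in G3 mTerc-/-Puma+/+, with 1 library inside the WT range. The others at the upper end were Rpl39l at 0.68 (SE 0.653), Rps2 at 0.11, and Rpl22l1 and Rps19bp1 at 0.09. At the lower end were Rps27rt at -0.37 (SE 0.196), Rpl3l at -0.30, Rpl24 at -0.14 and Rpl23a at -0.07, and the smallest adjusted p was 0.998.

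Loss of Puma on the telomerase-deficient background was read from the libraries with the label G3 mTerc-/-Puma-/- against G3 mTerc-/-Puma+/+. The members' median was -0.0026 and that of all genes -0.0147, with 37 members above and 47 below 0. High-count members ran from Rpl7l1 at -0.16 (SE 0.102) to Rps27 at 0.11 (SE 0.113), a zinc-finger protein of the small subunit. Next at the lower end came Rps2 at -0.11 and Rpl14 and Rps19bp1 at -0.09, below which lay Rpl24 at -0.26, and next at the upper end Rpl23a at 0.10, Rpl39l at 0.14 and Rps27rt at 0.20. Only Rpl3l, at 1.003, had an unadjusted p under 0.05, that is 1 of 84 members beside 6.22% of all genes.

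The libraries with the label G3 mTerc-/-Puma-/- were also compared with Puma-/- and with WT. Against Puma-/-, 68 members were above and 16 below 0, with a median of 0.0369 beside 0.0092 for all genes. Rpl22l1 at 0.21, Rps2 at 0.17, Rpl15 at 0.16 (SE 0.104) and Rpl36al at 0.11 were highest after Rpl3l, and Rpl23a at -0.11, Rps27rt at -0.17, Rpl24 and Rpl39l at -0.20 each and Rps28 at -0.08 were lowest. Without Puma-/- replicate 3 the median was 0.142 and 6 members, all higher, had an unadjusted p by edgeR under 0.05, against 1 with it (all genes with it, 8.42%). For the fit without that library the share over all genes is not given here, so the 6 members have no background beside them. Against WT the median was 0.0054 beside 0.0001 for all genes, and the high-count members ran only from Rpl14 at -0.07 to Rpl15 at 0.11, with Rps26 and Rps28 at -0.06 and Rps9 and Rpl36al at 0.08. The low-count members reached further, from Rpl24 at -0.41 (SE 0.26) and Rps27rt at -0.17 to Rpl39l at 0.82 (SE 0.687), and 1 member, Rpl3l, had an unadjusted p under 0.05 (all genes, 5.45%).

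G3 mTerc-/-Puma+/+ against Puma-/- had 152 called genes in the fit of 14 libraries and 24 with all 15, and 0 called members in both. The members' median was 0.0384, beside -0.0005 for all genes, with 65 above and 19 below 0. Highest were Rps2 at 0.28 (SE 0.135, adjusted p by edgeR 0.31), Rpl22l1 at 0.27 (SE 0.139), Rpl7l1 at 0.17, Rps12 at 0.15 and Rpl7 at 0.13. Lowest were Rpl3l at -0.42 (SE 0.237), Rps27rt at -0.37 (SE 0.183), Rpl39l at -0.33, Rpl23a at -0.21 and Rps27 at -0.11. One member, Rpl23a, had an unadjusted p under 0.05, beside 17.1% of all genes. Without Puma-/- replicate 3 the median was 0.145 and 12 members, all higher, had an unadjusted p by edgeR under 0.05, still with 0 called. These 12 members have no background beside them, as the share over all genes in that fit is not given here. With the Xist level as a covariate, the median was -0.048.

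Rpl23a, which encodes a large subunit protein at the exit of the peptide tunnel, lies at chr11:78180932-78183584 (GRCm38, minus strand). It was at 257, 304 and 303 CPM in WT, at 293, 320, 336 and 325 in Puma-/-, at 276, 292, 254 and 278 in G3 mTerc-/-Puma+/+ and at 262, 302 and 320 in the libraries with the label G3 mTerc-/-Puma-/- (252 in the library left out). The G3 mTerc-/-Puma+/+ libraries were all below the Puma-/- libraries, narrowly (292 against 293), while both groups overlapped with the others. The log2 fold change was -0.21 (SE 0.0826, 95% interval -0.39 to -0.035), with an adjusted p by edgeR of 0.215. With the difference between short and long genes as a covariate, its adjusted p by edgeR was 0.0516. For this gene 80.04% of the 100-base stretches occur in other genes, and 55.4% of its exon bases lie inside Tlcd1, on the opposite strand.

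Rpl3l, the paralogue of Rpl3 that replaces it in heart and skeletal muscle, lies at chr17:24727820-24736143 (plus strand) and shares no 100-base stretch with another gene. It had 21, 23 and 45 counts in WT, 42, 31, 30 and 33 in Puma-/-, 29, 26, 25 and 23 in G3 mTerc-/-Puma+/+ and 73, 45 and 62 in the libraries with the label G3 mTerc-/-Puma-/- (39 in the library left out). As CPM, the last group was at 0.458, 0.395 and 0.484, G3 mTerc-/-Puma+/+ at 0.212, 0.255, 0.208 and 0.214, Puma-/- at 0.351, 0.275, 0.268 and 0.299 and WT at 0.207, 0.213 and 0.397. The libraries with the label G3 mTerc-/-Puma-/- lay above all libraries of both single mutants and overlapped with WT, where replicate 3 reached 0.397. The log2 fold change over G3 mTerc-/-Puma+/+ was 1.003 (SE 0.249, 95% interval 0.467 to 1.54), with an adjusted p by edgeR of 0.217, and against Puma-/- it was 0.58 (SE 0.246, adjusted p by edgeR 0.554). Against WT it was 0.71 (SE 0.268, adjusted p by edgeR 0.756). The library left out was at 0.337 CPM, inside the range of Puma-/-. Rpl3 itself was at 1800, 1977 and 1997 CPM in WT, and it was called in 0 comparisons.

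Rps27rt, a copy of Rps27 on another chromosome, lies at chr9:114982366-114982739 (minus strand). It was at 6.01, 7.08 and 6.54 CPM in WT, at 5.84, 7.40, 6.63 and 6.42 in Puma-/-, at 4.50, 5.07, 5.30 and 5.44 in G3 mTerc-/-Puma+/+ and at 4.27, 8.41 and 4.82 in the libraries with the label G3 mTerc-/-Puma-/-. The G3 mTerc-/-Puma+/+ libraries were below all WT and all Puma-/- libraries, and replicate 3 of the last group was above every other library. The log2 fold change of -0.37 had an adjusted p by edgeR of 0.998 against WT and 0.314 against Puma-/-. Counted over all members, the libraries of the groups did not overlap for 1 member in G3 mTerc-/-Puma+/+ against WT (Rps27rt; all genes 4.07%), 1 in each comparison of the libraries with the label G3 mTerc-/-Puma-/- with a single mutant (Rpl3l; all genes 5.55% and 9.54%), 3 in G3 mTerc-/-Puma+/+ against Puma-/- (Rpl23a, Rpl3l and Rps27rt, all lower; all genes 10.8%) and 0 in the other 2 comparisons (all genes 9.71% and 8.52%). These shares, at most 3.57% of members, were below those of all genes in each comparison.

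**Figure D5:**
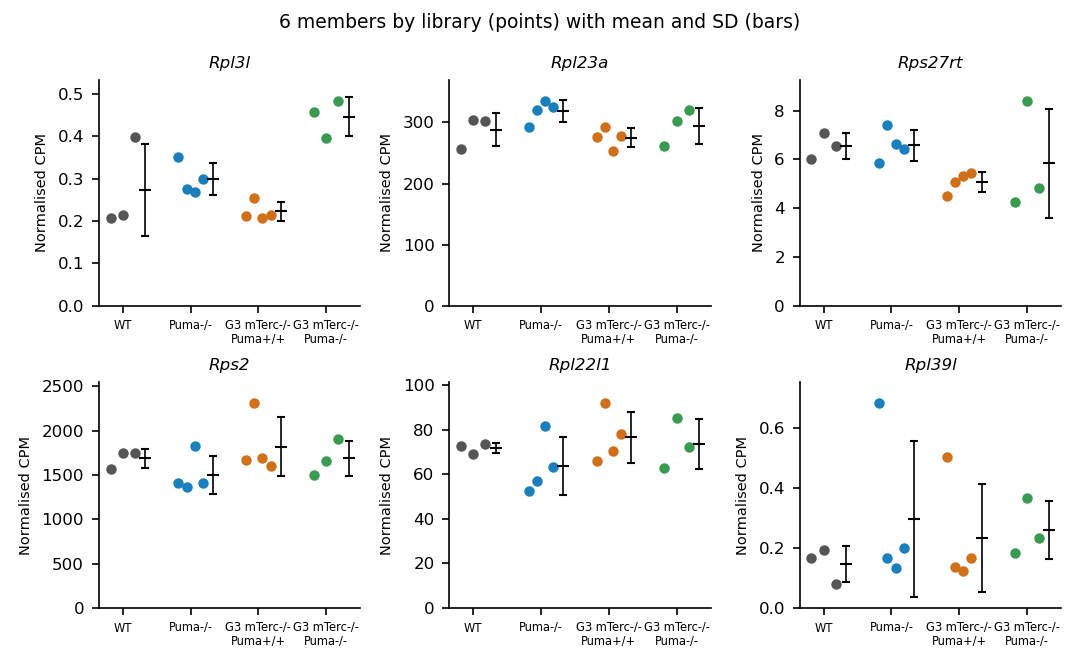
Normalised CPM of 6 members in each of the 14 libraries (points) by genotype, with mean and SD (bars). Rpl3l is highest in the libraries with the label G3 mTerc-/-Puma-/- (0.395 to 0.484), Rpl23a and Rps27rt are lower in G3 mTerc-/-Puma+/+ than in Puma-/-, and in Rps2, Rpl22l1 and Rpl39l single libraries stand above the rest of their genotype.

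Rpl39l, the paralogue of Rpl39 used in the testis, had 9 to 115 counts per library. It was at 0.686 CPM in Puma-/- replicate 1 and 0.505 in G3 mTerc-/-Puma+/+ replicate 1, with the other libraries of these genotypes between 0.125 and 0.199, and at 0.993 in the library left out, the highest of all 15. Its fitted values ran from -0.88 for the interaction to 1.02 for Puma-/- against WT, with standard errors from 0.572 to 0.897.

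By the labels, the interaction asked whether loss of Puma had another effect with than without telomerase. The libraries with the label G3 mTerc-/-Puma-/- that enter it did not show the lowered Bbc3 that their label implies. The members' median was 0.0229 beside -0.0060 for all genes, with 64 above and 20 below 0. Rpl3l at 0.87 (SE 0.356, adjusted p by edgeR 0.942) was the 1 member with an unadjusted p under 0.05 (all genes, 4.93%). Rps27rt at 0.19, Rpl22l1 and Rps15a at 0.11 and Rpl15 at 0.10 followed, and at the other end lay Rpl7l1 at -0.16, Rps19bp1 and Rpl24 at -0.06 and Rpl37a at -0.05. The median became 0.148 without Puma-/- replicate 3.

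The members were then read by their roles in the ribosome and in disease. The stalk of the large subunit, which recruits the elongation factors, is formed by RPLP0 with RPLP1 and RPLP2. Rplp0 was at 2647, 2927 and 3089 CPM in WT and 2912, 3131, 2846 and 2786 CPM in G3 mTerc-/-Puma+/+, and its log2 fold change between these genotypes was 0.02 (SE 0.103). Over the pairwise comparisons, the stalk's median lay between -0.0434 (Puma-/- against WT) and 0.0786 (G3 mTerc-/-Puma+/+ against Puma-/-), with 0 of 3 called. The genes of the 5S particle, Rpl5 and Rpl11, whose proteins bind MDM2 when ribosome assembly stalls, were at 1214, 1286 and 1383 CPM (Rpl5) and 949, 1058 and 1091 CPM (Rpl11) in WT. In G3 mTerc-/-Puma+/+ Rpl5 was at 1232, 1355, 1235 and 1353 CPM, a log2 fold change of 0.00 (SE 0.109), and Rpl11 at 1011, 1218, 1005 and 1058 CPM, or 0.06 (SE 0.121). The groups overlapped in both genes.

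For Rps14, the gene of the 5q- syndrome, WT was at 1169, 1327 and 1334 CPM, Puma-/- at 1121, 1103, 1548 and 1155, G3 mTerc-/-Puma+/+ at 1190, 1372, 1201 and 1237, and the libraries with the label G3 mTerc-/-Puma-/- at 1096, 1360 and 1380. No genotype stood apart, and the fold changes ran from -0.05 (Puma-/- against WT) to 0.05 (the libraries with the label G3 mTerc-/-Puma-/- against Puma-/-) in the pairwise comparisons. Rps19, the gene most often mutated in Diamond-Blackfan anaemia, was at 1130, 1366 and 1240 CPM in WT, 1139, 1126, 1532 and 1241 in Puma-/-, 1245, 1392, 1289 and 1255 in G3 mTerc-/-Puma+/+ and 1141, 1342 and 1439 in the libraries with the label G3 mTerc-/-Puma-/-. Over a fixed list of 15 genes of that disease (among them Rps19, Rps24, Rps26, Rps27, Rpl35a, Rpl5, Rpl11 and Rpl15), which need not be complete, levels ran from 628 to 3077 CPM per kilobase. The lowest was that of Rpl5, whose picked transcript has 2045 bases, with 46.6% of its exon bases inside Fam69a on the opposite strand. All 105 log2 fold changes lay between -0.11 (Rps27, G3 mTerc-/-Puma+/+ against Puma-/-) and 0.16 (Rpl15, the libraries with the label G3 mTerc-/-Puma-/- against Puma-/-), with a smallest adjusted p by edgeR of 0.619. The list's median in G3 mTerc-/-Puma+/+ against WT was 0.0171, close to that of all genes.

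Large and small subunit members had close medians. In G3 mTerc-/-Puma+/+ against WT the median log2 fold change was 0.0154 over 51 large subunit and 0.0044 over 33 small subunit genes, and in G3 mTerc-/-Puma+/+ against Puma-/- it was 0.0341 and 0.0416. The 4 X-linked members, Rpl10, Rpl36a, Rpl39 and Rps4x, mattered because the sexes differed between the latter groups. Rpl10 was at 1430 to 1810 CPM in Puma-/- and 1614 to 1820 in G3 mTerc-/-Puma+/+, Rpl36a at 477 to 681 and 506 to 606, Rpl39 at 412 to 642 and 487 to 567, and Rps4x at 1949 to 2594 and 2154 to 2355. The ranges overlapped in all 4 genes, with log2 fold changes of 0.10, 0.00, 0.10 and 0.04 and 0 called.

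Genes that surround the members in the same pathway were counted from gene lists of the pathway. In each of the 7 comparisons edgeR called 0 of 77 mitochondrial ribosomal protein genes, of 30 genes of RNA polymerase I and early rRNA processing, of 29 of 30 large subunit assembly genes that could be tested, of 15 genes of elongation and other TOP mRNAs, of 16 genes of the mTOR, LARP1 and MYC regulation of these mRNAs, and of 4 other ribosomal protein genes that the name rule leaves out, such as Fau and Rack1. In G3 mTerc-/-Puma+/+ against Puma-/- their median log2 fold changes were 0.1829, 0.1642, 0.1744, 0.0890, 0.0079 and 0.1479 in that order, above the 0.0384 of the members for all but the regulators. At an unadjusted p under 0.05 by edgeR, 11, 3, 4, 3, 4 and 1 of these genes were higher there, and 1 of the regulators was lower (all genes, 17.1% in either direction). In G3 mTerc-/-Puma+/+ against WT the first 3 lists had medians of 0.1069, 0.0990 and 0.1086, beside 0.0151 for the members and 0.0180 for all genes, and in Puma-/- against WT the same lists were at -0.0721, -0.0680 and -0.0436. These comparisons share libraries, and the difference between the lists and the members was not tested.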

How the data were processed

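RNA of lineage-negative bone marrow cells was sequenced as stranded, poly(A)-selected libraries, 15 in all. Per the labels and the study's methods, the authors trimmed reads with Trimmomatic 0.38, aligned them to GRCm38 (mm10) and counted reads per gene with STAR 2.5.2b; the deposited values are raw counts. The annotation release and the strand setting are not given in the sources used here, so reads of overlapping genes cannot be told apart. Genes were named by GENCODE vM21.

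Counts of 14 libraries were filtered with filterByExpr (18983 genes kept), scaled by TMM (factors 0.926 to 1.07) and tested with edgeR 4.0.16 (quasi-likelihood, R 4.3.3) in 1 fit over the 4 genotypes, with Benjamini-Hochberg adjustment over all genes tested and a threshold of 0.05 on the adjusted p. The fit has 10 residual degrees of freedom and a common biological coefficient of variation of 0.251. CPM of the members and of summed gene lists are scaled by the same factors, and log2 CPM add a prior count of 2. CPM of Bbc3, Ddx3y, Xist, Kit and Cd34 are scaled by library totals alone. Those of the library left out use TMM factors computed over all 15 libraries. Intervals are 95% intervals of the fit. The labels do not say whether replicates are separate recipients, so p-values measure the spread between these libraries. Intervals cover the spread between libraries at totals of 102790519 to 158367059 counts, and the limit for a count of 0 is 3 counts and covers counting error only.

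Named with values were, in each comparison, the 5 members with the highest and the 5 with the lowest log2 fold change, the 3 members highest and lowest per length, and the genes of fixed lists; members and lists were chosen with earlier results of these data known. Other members given by values (such as Rpl29 and Rpl37) were picked after their values were seen. The scripts were tested on simulated data. Alternatives were DESeq2 1.42.0, limma-voom 3.58.1 (the study used limma), other size factors and filters, all 15 libraries, pairwise fits, covariates and leaving out each library; a covariate for the difference between short and long genes and scaling on the members alone were chosen after seeing the data. Sequences come from a RefSeq table of GRCm38.p6. Protein sequences were not used here. Some genes are not reported here.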

Additional observations from a re-analysis of the deposited data

Results flagged for a closer look

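In genotypes of 4 libraries, a member was taken up here where 1 library lay so far from the other 3 that its gap to the nearest of them exceeded 0.829 of the whole range. This held in 31 of 255 groups examined (12.2%), of which 29 are given, while chance gives about 1 in 20, and members that move together are not independent groups.

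Puma-/- replicate 3 stood above the other 3 libraries of its genotype for 11 members given here, with these normalised CPM: Rps15 at 1476 (others 1084 to 1142), Rpl41 at 1298 (others 939 to 998), Rpl15 at 642 (others 517 to 537), Rpl3 at 2032 (others 1731 to 1739), Rps2 at 1826 (others 1363 to 1406), Rps18 at 1846 (others 1354 to 1415), Rps14 at 1548 (others 1103 to 1155), Rpl18 at 1176 (others 890 to 933), Rps3 at 2163 (others 1652 to 1720), Rplp1 at 2057 (others 1515 to 1578) and Rpsa at 3699 (others 2819 to 2925).

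G3 mTerc-/-Puma+/+ replicate 2 stood above the rest of its genotype for 15 members, with these normalised CPM: Rps15 at 1311 (others 1129 to 1136), Rpl27 at 559 (others 429 to 448), Rpl36al at 234 (others 180 to 185), Rpl15 at 661 (others 575 to 581), Rps19bp1 at 33.4 (others 24.2 to 25.2), Rps2 at 2313 (others 1599 to 1688), Rpl3l at 0.255 (others 0.208 to 0.214), Rps18 at 1696 (others 1470 to 1495), Rpl36 at 564 (others 452 to 467), Rpl7a at 1731 (others 1427 to 1438), Rpl6 at 1592 (others 1339 to 1382), Rps9 at 1899 (others 1706 to 1731), Rpl13 at 1264 (others 1113 to 1126), Rplp1 at 2135 (others 1636 to 1716) and Rpsa at 3653 (others 3113 to 3158).

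Rpl3l, listed above, also has few counts: G3 mTerc-/-Puma+/+ replicate 2 held 26, beside 29, 25 and 23 in replicates 1, 3 and 4. Single libraries stood apart for 2 further members with few counts. Rpl39l was at 0.686 CPM in Puma-/- replicate 1 (others 0.134 to 0.199) and at 0.505 CPM in G3 mTerc-/-Puma+/+ replicate 1 (others 0.125 to 0.167). Rpl24 was at 0.580 CPM in Puma-/- replicate 4, below the others at 0.870 to 0.901.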

How the results depend on the processing

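The count of 0 called members held in all 188 alternative counts (settings times comparisons), and the member medians ran from -0.1443 to 0.1475, both without Puma-/- replicate 3. These medians are near 0 and their sign depends on the scaling: with library size alone the median for Puma-/- against WT was 0.037, and with the Xist level as a covariate it was 0.035, while that for G3 mTerc-/-Puma+/+ against Puma-/- became -0.048. With the difference between short and long genes as a covariate (a choice made after the data were seen) the median standard error fell to between 0.056 and 0.086. In the 7 comparisons 1, 1, 2, 3, 1, 6 and 2 members then had an unadjusted p by edgeR under 0.05, with 0 called. The shares over all genes with this covariate are not given here. Of 1860 alternative values of the 70 named results, 1812 kept direction and side and 48 reversed, 43 of them without 1 library. Rpl39l, in the comparison of the libraries with the label G3 mTerc-/-Puma-/- with Puma-/-, turned from -0.20 to 0.56 with all 15 libraries, to 0.03 with limma-voom, to 0.13 with the replicate block and to 0.08 with the short-and-long covariate, and Rpl24 in the interaction turned from -0.06 to 0.07 with all 15 libraries; Rpl39l has 9 to 115 counts and Rpl24 64 to 123, and the cause was not tested. With mitochondrial genes and adult globins out of the total, the members' share was 9.78% in WT and 9.93% in G3 mTerc-/-Puma+/+. Over 18 pairs of libraries with the same replicate number in their titles, the correlation of deviations ran from -0.253 to 0.175, over 0.1 in 3. Among the 14 libraries, replicate 1 nevertheless had the lowest member median of its genotype in all 4 genotypes. Its deviations were -0.169 (label G3 mTerc-/-Puma-/-), -0.153 (WT), -0.150 (Puma-/-) and -0.086 (G3 mTerc-/-Puma+/+). Whether libraries with the same number were prepared together was not tested. With the number as a block 0 members were called. Calls over all genes then went from 152 to 43 for G3 mTerc-/-Puma+/+ against Puma-/-. For the libraries with the label G3 mTerc-/-Puma-/- against Puma-/- they went from 58 to 21. Members that changed sign when 1 library was left out are given with the range over such fits, as log2 fold changes. In Puma-/- against WT, these were Rpl24 (-0.39 to 0.01), Rpl3l (-0.05 to 0.50), Rpl37a (-0.10 to 0.12) and Rpl36 (-0.10 to 0.12). In G3 mTerc-/-Puma+/+ against WT, these were Rpl3l (-0.48 to 0.08), Rpl24 (-0.32 to 0.07), Rpl39l (-0.05 to 0.94), Rps2 (-0.03 to 0.16), Rpl22l1 (-0.01 to 0.14) and Rps19bp1 (-0.04 to 0.15). In the libraries with the label G3 mTerc-/-Puma-/- against G3 mTerc-/-Puma+/+, these were Rps2 (-0.20 to 0.02), Rps19bp1 (-0.17 to 0.03), Rps27rt (-0.16 to 0.38) and Rpl39l (-0.19 to 0.86). In the libraries with the label G3 mTerc-/-Puma-/- against Puma-/-, these were Rpl39l (-0.52 to 0.63), Rps27rt (-0.53 to 0.01) and Rps28 (-0.14 to 0.03). In the libraries with the label G3 mTerc-/-Puma-/- against WT, these were Rps27rt (-0.53 to 0.01), Rps26 (-0.14 to 0.04), Rps28 (-0.13 to 0.02) and Rpl15 (-0.00 to 0.20). In G3 mTerc-/-Puma+/+ against Puma-/-, these were Rpl39l (-1.06 to 0.50). In the interaction, these were Rps19bp1 (-0.15 to 0.06), Rpl24 (-0.26 to 0.12), Rpl37a (-0.13 to 0.10), Rps27rt (-0.17 to 0.37), Rpl22l1 (-0.01 to 0.28) and Rpl15 (-0.01 to 0.20). With a filter of at least 1 CPM in 3 libraries 81 members could be tested, without Rpl3l, Rpl39l and Rpl24, which have at most 123 counts per library.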
